A study of Arabidopsis thaliana with 24 samples.

Results

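Transcript accumulation was compared between 2 lines that carry different kinds of mutation in the same gene, *RDR6* (AT3G49500). *tt19* suppressor S4 carries a missense change, in which a glycine is replaced by an arginine (G664R), and *tt19* suppressor S2 carries a nonsense change, in which a glutamine codon becomes a stop. The comparison took the 3 libraries of S4 and the 3 libraries of S2 by their labels, that is, 6 of the 24 libraries of the series, and all genes of the count tables. Both lines came from *tt19-8*, a T-DNA insertion mutant of *TT19* in the Col-0 background, mutagenized with ethyl methanesulfonate and selected because anthocyanin pigment returned. S4, S2 and the parent *tt19-8* therefore all lack normal *TT19*, and Col-0, the wild type, does not. S8, a line with another *RDR6* nonsense change in *tt19-8*, is given beside some values. Each suppressor is a single mutagenized line, so its *RDR6* change and any other change it carries cannot be told apart here. Whole seedlings had been shaken for 4 days in a 3% sucrose solution with the light always on (anthocyanin inductive conditions, AIC). The labels do not say whether replicates were separate cultures, so p-values measure the spread between libraries of a genotype, which may be technical. That spread was estimated over all libraries fitted, not only those of S4 and S2. S2 replicate 3 stood apart from S2 replicates 1 and 2, and the comparison was made with and without it.

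RDR6 is an RNA-dependent RNA polymerase. It copies certain cleaved transcripts into double-stranded RNA, with SGS3 holding the template, and DCL4 dices the product into secondary small interfering RNAs (siRNAs). The best-known substrates are the *TAS* transcripts. A microRNA (miRNA) cuts each of them, and the phased trans-acting siRNAs (tasiRNAs) that follow silence other genes: those of *TAS3* act on auxin response factors, those of *TAS1* and *TAS2* on pentatricopeptide repeat (PPR) genes, and those of *TAS4* on the MYB genes that switch on anthocyanin synthesis. Anthocyanins are made by the flavonoid pathway, and TT19, a glutathione S-transferase, helps to bring them to the vacuole.

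The sequences on which these steps rest are shown here, all from the RefSeq annotation of TAIR10.1, because the genes they connect carry the results described further on. The first 3 are the mature miRNAs that start tasiRNA production, 5′ to 3′, with the seed (bases 2 to 8) in capitals. They share no seed.
miR828, which cuts *TAS4* (chr4:13847020-13847041, plus strand): uCUUGCUUaaaugaguauucca
miR173-5p, which cuts *TAS1* and *TAS2* (chr3:8236161-8236182, plus strand): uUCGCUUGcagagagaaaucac
miR390a-5p, which directs the cutting of *TAS3* (chr2:16061971-16061991, plus strand): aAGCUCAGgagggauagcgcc
The best match to miR828 in *TAS4* had 1 base that does not pair (in capitals, with G:U counted as unpaired).
*TAS4* site (chr3:9417809-9417830, minus strand): tggaatactcatttGagcaaga
Of all windows of 21 bases in *TAS4*, the one most like the coding sequence of *PAP1* matched it without a mismatch, and *PAP2* differed from it at 1 base, shown in capitals.
*TAS4* window (chr3:9417736-9417756, minus strand): gcctcgacctcgatccttcac
*PAP1* (chr1:21234021-21234041, minus strand): gcctcgacctcgatccttcac
*PAP2* (chr1:24765073-24765093, plus strand): gcctcgacctcgatccttcTc
The codon that is changed in S4 is a glycine codon, in capitals, in the *RDR6* coding strand as the reference genome has it.
*RDR6* codon 664 and its neighbours (chr3:18351202-18351228, minus strand): aggtttcaacctGGGttcttaaatcgg

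The libraries were deep and similar in most respects. They held 37.4 to 73.4 M counts in S4 and 43.5 to 58.4 M in S2, against 25.8 to 73.4 M over all 24 libraries. Between replicates, the median chi-square over genes with at least 50 counts was 3.37 to 5.60 times what sampling alone gives in S4, and 5.84 times for S2 replicates 1 and 2, but 28.6 and 27.8 times for S2 replicate 3 against these 2. Genes were called differentially expressed (DE) at an adjusted p under 0.05 in edgeR's quasi-likelihood test, whatever their fold change. Of 22089 genes tested, 6310 were DE between S4 and S2 (28.6%), with 2870 higher in S4 (13.0%) and 3440 lower in S4 (15.6%). At least 2-fold changes were seen for 751 of the genes higher in S4 and 517 of those lower. Without S2 replicate 3, 7670 of 22378 genes were DE (34.3%), 3522 of them higher in S4 (15.7%) and 4148 lower (18.5%). The 2 sets shared 5563 genes, none of which changed direction, while 747 genes were DE only with S2 replicate 3 and 2107 only without it. Among the genes DE without it, S2 replicate 3, which that test did not use, lay on the S4 side of the mean of S2 replicates 1 and 2 for 84.4%, at a median of 52.1% of the way to the mean of S4 on the log2 scale. Over all genes tested the share was 70.3% and the median 52.8%, and a choice of genes by the gap between S4 and S2 replicates 1 and 2 in itself favours that side. The 3 S4 libraries lay above all 3 S2 libraries for 22.0% of all genes tested and below them for 21.9%.

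*RDR6* itself was measured first. Its transcript stood at 28.5, 27.6 and 29.2 CPM (counts per 1000000, after TMM scaling) in S4 replicates 1, 2 and 3, against 19.5, 18.9 and 19.7 CPM in S2. All 3 S4 libraries lay above all S2 libraries, and the log2 fold change with its SE was 0.55 ± 0.11 (adjusted p = 0.00111). S2 replicate 3 did not stand apart for this gene. The parent had 28.6 ± 3.73 CPM and Col-0 30.1 ± 0.683 CPM (SD, n = 3 each), so that S4 did not differ detectably from the parent (log2 fold change -0.01 ± 0.11), while S2 was lower than it (-0.56 ± 0.11, adjusted p = 0.00158). S8, another line with a nonsense change, had a mean of 10.4 CPM, and S1, a further such line of the series, is not shown here. These counts measure the amount of transcript and not whether the protein works.

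Of the 22 genes for the siRNA machinery, all tested, 6 were higher in S4 than in S2, 3 were lower and 13 did not pass, with a median log2 fold change of 0.09 (-0.01 over all genes). The shares were 27.3% higher and 13.6% lower, against 13.0% and 15.6% over all genes, and without S2 replicate 3 the counts were 7 and 1. *DCL4*, the Dicer that cuts the RDR6 product, had 41.9, 39.0 and 46.5 CPM in S4 against 28.6, 29.9 and 39.6 CPM in S2 (log2 fold change 0.38 ± 0.10, adjusted p = 0.00858). *DCL1*, which makes most miRNAs, and *DCL2*, which makes siRNAs of another length, were higher by 0.38 and 0.46 on the log2 scale. *DCL2* shares 847 bases of its span with a neighbouring gene, AT3G03305, and *DCL1* 788 bases with a non-coding RNA, so that their reads may not all be their own. *AGO10*, an Argonaute, was also higher (0.35), and so was *SDE5*, which acts with RDR6 and SGS3 (0.57). For *AGO10* and *DCL4* S2 replicate 3 stood within or near the range of S4: *AGO10* had 113, 118 and 119 CPM in S4, against 72.3 and 78.6 CPM in S2 replicates 1 and 2 and 124 CPM in S2 replicate 3. *AGO7*, the Argonaute that carries miR390, was lower in S4 with 8.87, 9.42 and 8.39 CPM, against 10.4, 11.9 and 14.1 CPM in S2 (-0.45 ± 0.12, adjusted p = 0.00882). *DRB4*, the partner of DCL4, and *HEN1*, the small RNA methylase, were lower by a log2 fold change of -0.20 and -0.30. Without S2 replicate 3 the calls of *SDE5*, *DRB4* and *HEN1* were lost, with adjusted p of 0.0577, 0.0703 and 0.128. The call of *DCL4* was lost without S2 replicate 1 or 2 or S4 replicate 3 (adjusted p = 0.0548 to 0.0644), and those of *AGO10*, *SDE5*, *DRB4* and *HEN1* without each of at least 3 other single libraries (adjusted p up to 0.251). With the 6 libraries of S4 and S2 fitted alone, all the called genes of this list but *DCL2* and *RDR6* lost their call (adjusted p = 0.0531 for *AGO7*, and up to 0.233 for *AGO10*).

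Among the *TAS* transcripts, *TAS4* was the one of 6 tested that passed (16.7% lower in S4, against 15.6% over all genes). It had 22.3, 24.7 and 25.2 CPM in S4, against 56.4, 59.7 and 35.0 CPM in S2. The groups did not overlap, and the log2 fold change was -1.07 ± 0.19 (adjusted p = 0.000326). Both lines were above the parent, which had 6.40 ± 0.657 CPM (SD, n = 3), by a log2 fold change of 1.91 ± 0.21 in S4 and 2.98 ± 0.21 in S2. These 2 contrasts share the parent's libraries, and the direct comparison of S4 with S2 is the test of their difference. *TAS1C* had 10.9, 12.4 and 13.0 CPM in S4 against 18.0, 18.8 and 12.3 CPM in S2, and *TAS2* had 23.5, 25.7 and 26.0 CPM against 29.4, 32.6 and 28.3 CPM. Neither passed the test (adjusted p = 0.171 and 0.150), although both did with voom and quality weights (adjusted p = 0.000211 and 0.00470), and the values of *TAS1C* overlapped through S2 replicate 3.

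The tasiRNA targets did not move as a group: of 11 tested, 1 was higher in S4 and 2 were lower, with a median of -0.07. Over all genes, 13.0% were higher and 15.6% were lower. *PAP1*, the MYB that turns on the late anthocyanin genes and the gene with the exact match to *TAS4* shown above, had 24.3, 24.6 and 24.7 CPM in S4, against 113, 118 and 58.1 CPM in S2. The 3 S4 values were nearly the same, and all S2 values lay well above them. The log2 fold change was -1.97 ± 0.20 (adjusted p = 7.16e-07) and -2.24 ± 0.15 without S2 replicate 3. In the parent *PAP1* stood at 24.1 ± 1.12 CPM (SD, n = 3), so that S4 differed from it by 0.03 ± 0.20 on the log2 scale, and S2 by 2.00 ± 0.20. *PAP2*, a close relative with 1 mismatch to the *TAS4* window, had 20.6, 18.8 and 21.4 CPM in S4, against 28.4, 27.0 and 24.9 CPM in S2. Its groups did not overlap, but the difference did not pass (-0.40 ± 0.21, adjusted p = 0.156). It did pass with the 6 libraries alone (adjusted p = 0.0146) and with voom and quality weights (adjusted p = 0.00313). *ARF4*, an auxin response factor silenced by *TAS3* tasiRNAs, was slightly lower in S4 (85.2, 86.6 and 89.2 CPM) than in S2 (102, 107 and 109 CPM), by a log2 fold change of -0.29 ± 0.07 (adjusted p = 0.00664). Both lines had more *ARF4* than the parent, which had 48.2 ± 0.708 CPM (SD, n = 3). *HTT3*, a target of *TAS1* tasiRNAs, was higher in S4 with 11.0, 10.9 and 10.6 CPM, against 6.71, 7.88 and 7.48 CPM in S2 (0.56 ± 0.15). Of 21 PPR genes tested, 4 were higher in S4 and none was lower, against 13.0% higher and 15.6% lower over all genes. The 4 were led by AT5G41170 (0.94 ± 0.28), AT1G63230 (0.74 ± 0.24) and AT1G12620 (0.73 ± 0.14). The first 2 lost their call without S2 replicate 1, S4 replicate 2 or S4 replicate 3, and AT1G63230 also without S2 replicate 2 (adjusted p = 0.0524 to 0.0909). PPR genes of this clade are similar in sequence, so reads may have been split between them, and how the authors treated such reads is not stated.

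**Figure D1:**
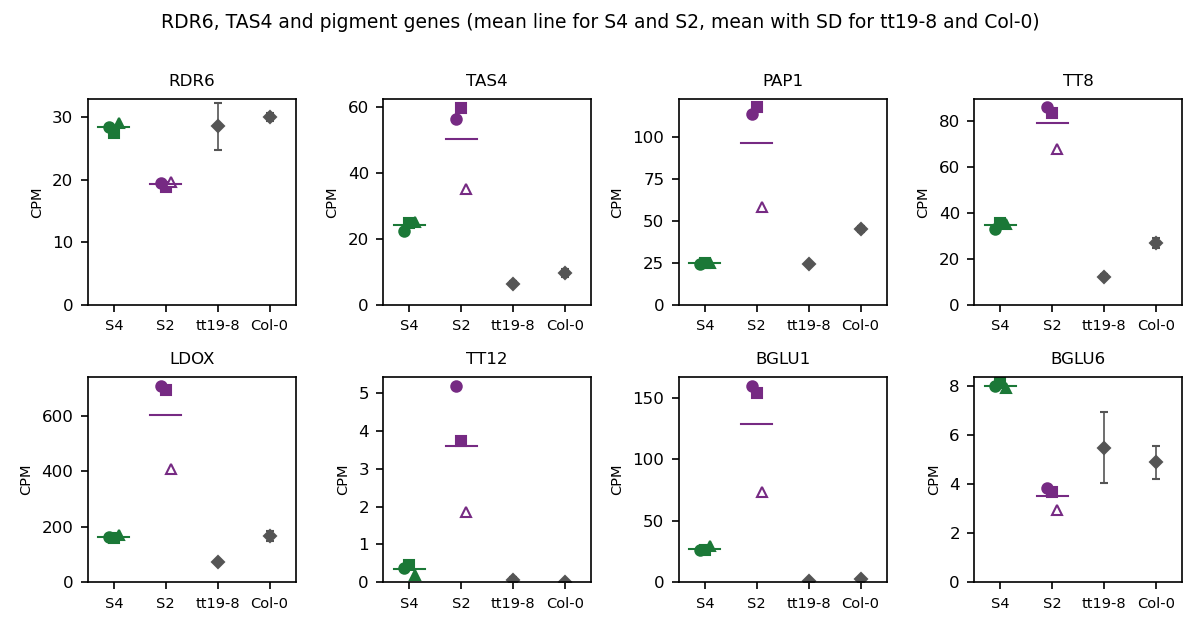
CPM of *RDR6*, *TAS4* and 6 pigment genes in each library of S4 (green) and S2 (purple; open triangle, S2 replicate 3), with lines at the group means, beside the mean and SD of *tt19-8* and Col-0 (grey diamonds, n = 3 each); all axes start at 0. For *PAP1* the S4 libraries sit at 24.3 to 24.7 CPM, beside the parent at 24.1 CPM, and the S2 libraries at 58.1 to 118 CPM.

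The genes of pigment synthesis were lower in S4 than in S2 along nearly the whole pathway. Of the 7 core flavonoid genes, *TT19* included, 6 were lower in S4 and none was higher (median log2 fold change -0.91). Of the 8 genes for anthocyanin decoration 7 were lower (median -1.63). The shares lower were 85.7% and 87.5%, against 15.6% over all genes. *TT4*, chalcone synthase and the entry to the pathway, had 2513, 2538 and 2481 CPM in S4 against 3952, 3625 and 3035 CPM in S2 (-0.49 ± 0.14, adjusted p = 0.00979), a call that was lost without S2 replicate 1 (-0.41, adjusted p = 0.0583). *TT5*, chalcone isomerase, followed with -0.83, *TT7*, flavonoid 3′-hydroxylase, with -1.25, and *TT3*, dihydroflavonol reductase, with -1.52. *LDOX*, anthocyanidin synthase, had 164, 159 and 170 CPM in S4, against 709, 692 and 407 CPM in S2 (-1.87 ± 0.21, adjusted p = 2.21e-06). S2 replicate 3 lay between S4 and the other S2 libraries for all 5 of these genes, and above all S4 libraries for each of them. The values of *TT6*, flavanone 3-hydroxylase, were under 0.4 CPM in all 6 libraries. Its span overlaps a non-coding RNA, AT3G51238, over 1588 bases, and its level was not read.

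Of the transferases that decorate anthocyanins, *UGT79B1*, which adds xylose, had 107, 91.3 and 97.9 CPM in S4 against 428, 383 and 242 CPM in S2 (-1.83 ± 0.21). *3AT1*, an acyltransferase, was lower by a log2 fold change of -1.64, *UGT75C1*, which adds glucose, by -1.62, *5MAT*, which adds malonate, by -1.65 and *SAT*, which adds sinapate, by -1.32. *UGT75C1* overlaps a neighbour over 230 bases. *BGLU10*, an acyl-glucose-dependent glucosyltransferase, differed by a smaller amount, with 79.3, 78.8 and 81.2 CPM in S4 and 98.0, 106 and 87.8 CPM in S2 (-0.29 ± 0.07, adjusted p = 0.00571). *UGT84A2*, which makes the sinapoyl-glucose donor, did not pass (-0.23 ± 0.11, adjusted p = 0.116), although its groups did not overlap and it passed with voom and quality weights (adjusted p = 0.00124). Relative to the parent, S4 was still higher for each of the called genes just named. *LDOX* was 1.18 ± 0.21 above the parent on the log2 scale in S4 and 3.05 ± 0.22 in S2, and *UGT79B1* 0.84 ± 0.20 and 2.67 ± 0.21. *TT19*, disrupted by the T-DNA in both lines, left few counts, 4.64, 5.07 and 6.10 CPM in S4 and 11.5, 9.72 and 8.28 CPM in S2, against 128 ± 4.24 CPM in Col-0 (SD, n = 3).

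Of 14 flavonoid regulators tested (*TAS4* and *PAP1* among them), 7 were lower in S4 and 2 were higher, against 15.6% and 13.0% over all genes. The 2 that were higher lost their call without S2 replicate 3. *TT8*, the bHLH partner of PAP1, had 32.9, 35.5 and 35.3 CPM in S4 against 85.9, 83.5 and 67.7 CPM in S2 (-1.19 ± 0.14, adjusted p = 5.75e-06). *TTG2*, a WRKY factor downstream of the complex, differed by -1.05 and *MYBL2*, a MYB that represses it, by -1.46, so that an activator and a repressor of the pathway were lower in the same libraries. *TTG1*, the WD40 subunit, differed by -0.28 and *MYB111*, an activator of flavonol genes, by -0.56. *MYB12*, which acts with MYB111, and *EGL3*, a relative of TT8, were the 2 higher in S4, by 0.38 and 0.32 on the log2 scale, with adjusted p of 0.109 and 0.193 without S2 replicate 3, and they lost their call without each of at least 3 other single libraries as well (adjusted p up to 0.123). *TTG1* and *MYB111* lost their call without S2 replicate 1 (adjusted p = 0.144 and 0.103), and also without S4 replicate 3 and S4 replicate 1 (adjusted p = 0.0680 for *TTG1* and 0.0540 for *MYB111*). *TTG1* and *EGL3* also lost it with the 6 libraries alone (adjusted p = 0.0855 and 0.0717).

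Among the branches next to anthocyanin, all 4 tested genes of proanthocyanidin synthesis, the seed-coat tannin branch, were lower in S4. Over all genes, 15.6% were lower and 13.0% higher. *TT12*, a vacuolar transporter of the MATE family, had 0.380, 0.456 and 0.191 CPM in S4 and 5.16, 3.73 and 1.86 CPM in S2 (-3.32 ± 0.57, adjusted p = 0.000269). *TT13*, a proton pump, had 10.3, 10.4 and 10.4 CPM against 54.4, 57.1 and 26.8 CPM (-2.15 ± 0.34). Of the 14 flavonol genes tested, 6 were lower and 1 was higher (42.9% and 7.1%). *UGT78D2*, which also glucosylates anthocyanidins, was lower by a log2 fold change of -1.25, and *BGLU1* by -2.23 ± 0.33, with 26.3, 26.5 and 29.5 CPM in S4 against 159, 154 and 73.2 CPM in S2. The one that was higher was *BGLU6*, a flavonol glucosyltransferase, with 8.00, 8.14 and 7.92 CPM in S4 against 3.87, 3.69 and 2.97 CPM in S2 (1.19 ± 0.17, adjusted p = 3.88e-05). Upstream, 7 of 11 phenylpropanoid genes were lower (63.6%) and none was higher. *PAL1*, which takes phenylalanine into the pathway, had 503, 493 and 488 CPM in S4, against 1226, 1132 and 674 CPM in S2 (-1.03 ± 0.17), and *PAL2* and *4CL3* differed by -0.92 and -0.99. Outside the pathway proper, *CHIL*, a chalcone isomerase-like protein that assists chalcone synthase, was lower by -1.51, and *GSTF5*, a glutathione S-transferase of the same class as TT19, by -2.05.

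Genes that plants induce under low oxygen went the other way. All 41 listed genes had a positive fold change, 26 passed as higher in S4 (63.4%, against 13.0% over all genes) and none as lower, with a median log2 fold change of 1.01. Without S2 replicate 3 the count was 38 and the median 1.25. The S2 libraries were split for these genes: relative to the mean of S4, the median gene stood at -1.28 in S2 replicate 1, -1.48 in replicate 2 and -0.54 in replicate 3 on a log2 scale. *ADH1*, alcohol dehydrogenase, had 3523, 3173 and 3328 CPM in S4, against 998, 938 and 2210 CPM in S2. The groups did not overlap, but the difference fell just short with all libraries (log2 fold change 1.27 ± 0.49, adjusted p = 0.0539) and passed without S2 replicate 3 (1.79 ± 0.53, adjusted p = 0.0123) and with the 6 libraries alone (adjusted p = 0.0282). *PDC1*, pyruvate decarboxylase of the same fermentation route, behaved alike, with 1414, 1427 and 1410 CPM in S4 and 381, 375 and 935 CPM in S2 (adjusted p = 0.0548, and 0.0109 without S2 replicate 3). *AT5G10040*, a short gene whose span overlaps *TGA4* over 435 bases, had 50.9, 48.8 and 49.3 CPM in S4 and 0.915, 0.997 and 16.9 CPM in S2. Genes that passed with all libraries included *HRA1* (1.08 ± 0.30) and *HRE1* (0.90 ± 0.24), 2 transcription factors of the response, *PCO1* (0.53 ± 0.13) and *PCO2* (0.60 ± 0.22), the oxygen-sensing oxidases, and AT3G10020 (0.69 ± 0.10, adjusted p = 4.68e-05), for which S2 replicate 3 stood at 40.2 CPM beside 36.7 and 35.3 CPM in S2 replicates 1 and 2, and S4 at 62.4, 60.4 and 58.3 CPM. The 3 parent libraries also varied, with *ADH1* between 1003 and 4706 CPM, and S4 did not differ detectably from them for *ADH1* (0.57 ± 0.48, adjusted p = 0.437). *HRA1* lost its call without S2 replicate 1 or 2 (adjusted p = 0.0588 and 0.0643), and *PCO2* without any library but S2 replicate 3 (adjusted p = 0.0741 to 0.162). What made the libraries of a genotype differ in these genes was not tested.

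**Figure D2:**
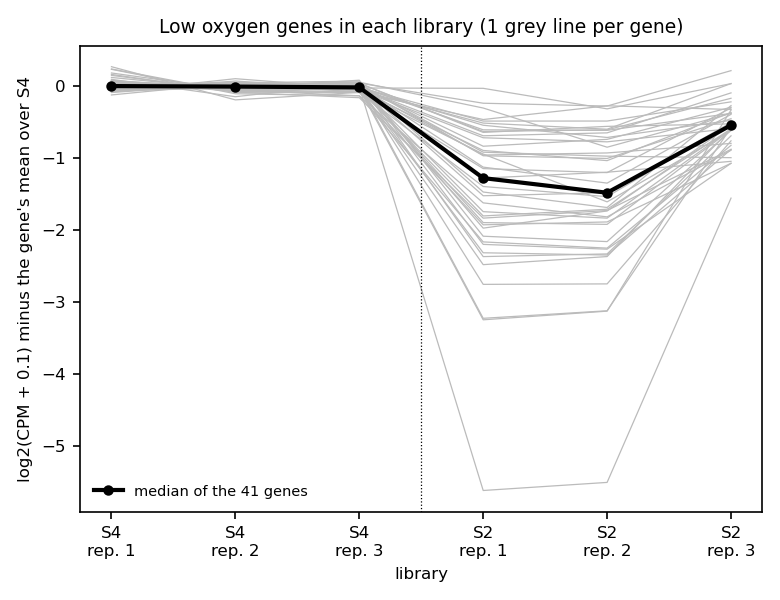
log2(CPM + 0.1) of the 41 low oxygen genes (grey lines) in the 6 libraries, each gene relative to its mean over S4, with the median in black. The S4 libraries lie together, and S2 replicate 3, at a median of -0.54, lies between them and S2 replicates 1 and 2 at -1.28 and -1.48.

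Sucrose synthases, which split sucrose and are partly induced by low oxygen, were among the genes higher in S4. *SUS1* had 109, 118 and 115 CPM in S4 against 29.1, 34.3 and 78.5 CPM in S2 (1.27 ± 0.40, adjusted p = 0.0226, and 1.85 ± 0.42 without S2 replicate 3). *SUS2* (1.10 ± 0.26) and *SUS3* (0.34 ± 0.10) were higher too. *SUS1* lost its call without S2 replicate 1 or 2 or S4 replicate 2 or 3 (adjusted p = 0.0524 to 0.114), and *SUS3* without S2 replicate 1 or 2 or S4 replicate 3 (adjusted p = 0.0620 to 0.128). *SUS4* had 129, 140 and 130 CPM in S4 and 13.9, 15.2 and 106 CPM in S2, so that the result turned on S2 replicate 3: 1.56 ± 0.95 (adjusted p = 0.230) with it and 3.19 ± 1.08 (adjusted p = 0.0256) without it. The parent's libraries ranged from 26.4 to 540 CPM for this gene. *SUS4* is shown with its site because the study names it as a predicted target of a secondary siRNA from the PPR gene *RPF3*, siR6611, whose sequence and site are given with unpaired bases of the site in capitals (G:U counted as unpaired).
siR6611 (chr1:23307449-23307469, plus strand): uggagugaugcuucucgacua
*SUS4* site (chr3:15180604-15180624, minus strand): tCgAcgagaagTatcactTTT
Of the 25 genes of sucrose use tested, 3 were higher in S4 and 4 were lower (over all genes, 13.0% and 15.6% were), and without S2 replicate 3 the counts were 4 and 7. The 4 that were lower with all libraries were *SUC1*, a sucrose carrier (-0.83 ± 0.14), *CINV2*, a cytosolic invertase (-0.80 ± 0.15), *HXK1*, the hexokinase that also senses glucose (-0.68 ± 0.09), and *STP4*, a monosaccharide carrier (-0.61 ± 0.10). *HXK1* overlaps an antisense RNA over 193 bases.

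A large difference that was alike in every library was in a single gene of starch synthesis. *ADG1* (AT5G48300), the small subunit of ADP-glucose pyrophosphorylase, the enzyme that commits glucose to starch, had 23.8, 22.9 and 23.1 CPM in S4, against 504, 485 and 468 CPM in S2. This was 20.9-fold lower in S4 (log2 fold change -4.38 ± 0.12, adjusted p = 1.37e-16), and S2 replicate 3 made no difference to it. The 21 libraries of the 7 other genotypes all lay between 254 and 747 CPM, the parent at 317 ± 17.5 CPM and S8 at a mean of 418 CPM. S4 was 3.77 ± 0.11 below the parent on the log2 scale, while S2 was 0.61 ± 0.10 above it. The nearest tested genes on either side, AT5G48290 and AT5G48310, which were chosen after their values were seen, did not pass (adjusted p = 0.770 and 0.111, the second with 0.0415 without S2 replicate 1). AT5G48320, the next gene on one side and also outside the rule for named genes, was higher in S4. It had 5.90, 6.06 and 5.17 CPM against 1.74, 1.44 and 1.93 CPM in S2 (1.75 ± 0.32). *APL3*, a large subunit of the same enzyme that sugar induces, had 281, 289 and 299 CPM in S4 and 506, 485 and 479 CPM in S2 (-0.76 ± 0.07, adjusted p = 4.00e-07). *GBSS1*, which makes amylose, was lower by -0.58 ± 0.12, with S4 near the parent (0.16 ± 0.12) and S2 above it (0.74 ± 0.12). *TPS5*, of the trehalose phosphate family, was lower by -0.62 and *DIN10*, a gene induced when sugar runs short, was higher by 0.60, a call that was lost without any library but S2 replicate 3 (adjusted p = 0.0889 to 0.178). Of 13 sugar response genes tested, 2 were higher in S4 and 4 were lower (15.4% and 30.8%, against 13.0% and 15.6% over all genes). *TPS5* shares 128 bases with a neighbour.

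**Figure D3:**
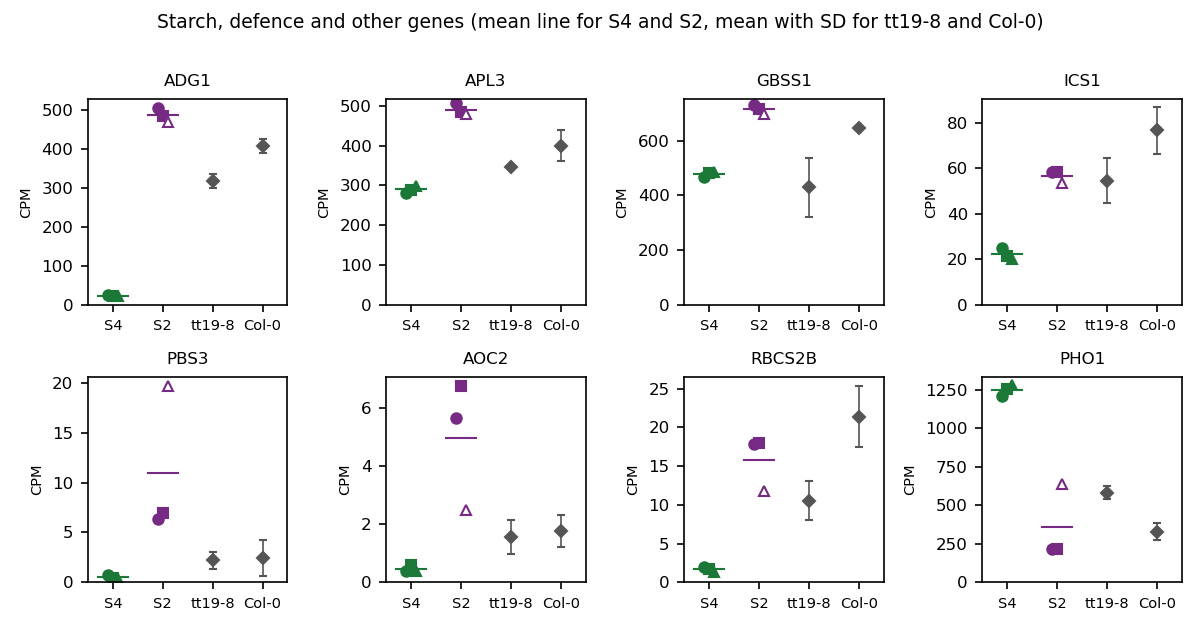
CPM of *ADG1*, *APL3* and *GBSS1* (starch), *ICS1* and *PBS3* (salicylate), *AOC2* (jasmonate), *RBCS2B* (photosynthesis) and *PHO1* (phosphate export) in S4 (green) and S2 (purple; open triangle, S2 replicate 3), with lines at the group means, and in *tt19-8* and Col-0 (mean and SD, n = 3 each). *ADG1* lies at 22.9 to 23.8 CPM in S4 and at 468 CPM or more in S2.

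Of 13 salicylate genes tested, 7 were lower in S4 and none was higher (median -0.58), against 15.6% lower over all genes, and the same count of 7 passed without S2 replicate 3. *PBS3*, which completes salicylate synthesis, had 0.715, 0.470 and 0.327 CPM in S4 and 6.34, 6.98 and 19.6 CPM in S2 (-4.39 ± 0.51, adjusted p = 3.84e-06, and -3.66 ± 0.44 without S2 replicate 3). Here S2 replicate 3 lay farther from S4 than the other S2 libraries did, the opposite of its place in the pigment and low oxygen genes. The same held for *WRKY70*, a salicylate-responsive factor (1.25, 1.31 and 1.61 CPM in S4, against 4.98, 4.25 and 7.37 CPM in S2), *SARD1* (-1.80 ± 0.37) and *CBP60G* (-1.66 ± 0.23), which both switch on salicylate synthesis. *SARD1* overlaps *GIP2* over 640 bases. *ICS1*, the isochorismate synthase of that route, was outside the rule for named genes and was chosen after its values were seen. It had 24.9, 21.2 and 20.1 CPM in S4, against 58.5, 58.3 and 53.6 CPM in S2 (-1.36 ± 0.13, adjusted p = 2.79e-07), and S2 did not differ detectably from the parent (0.06 ± 0.12), while S4 was 1.30 ± 0.13 below it.

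Of 25 jasmonate genes tested, 8 were lower in S4 (32.0%, against 15.6% over all genes), none was higher and 17 did not pass (median -0.32). Of those lower, *AOC2*, an allene oxide cyclase, had 0.395, 0.594 and 0.408 CPM in S4, against 5.66, 6.74 and 2.49 CPM in S2 (-3.38 ± 0.37, adjusted p = 1.73e-06), *AOC1* differed by -0.95 and *AOS*, allene oxide synthase, by -0.87. The *AOC* genes are close copies, so reads may be shared among them.

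Nutrient genes were divided. Of 25 iron genes tested, 8 were lower in S4 (32.0%, against 15.6% over all genes) and 1 was higher. The counts were 11 lower and 5 higher without S2 replicate 3. Of these 5, *CYP82C4*, described further on, had the largest change (log2 fold change 5.96). It was not called with S2 replicate 3 (adjusted p = 0.266). Among those lower were bHLH factors that plants raise when iron is short: *BHLH39* had 0.821, 0.608 and 0.490 CPM in S4 and 2.79, 2.99 and 1.22 CPM in S2 (-1.81 ± 0.38), and *BHLH100* (-2.80 ± 0.60) and *BHLH101* (-1.55 ± 0.42) had the same order. Both lines were below the parent for *BHLH39*, which stood there at 11.0 ± 2.75 CPM (SD, n = 3). *NAS4*, a nicotianamine synthase that makes a metal carrier, was lower in S4 with 6.65, 7.10 and 6.32 CPM, against 23.1, 25.5 and 14.8 CPM in S2 (-1.65 ± 0.15). Of 20 phosphate genes tested, 7 were higher and 1 was lower, and 6 and 2 without S2 replicate 3. With all libraries the shares were 35.0% and 5.0%, against 13.0% and 15.6% over all genes. *SQD1*, which makes sulfolipid in place of phospholipid, had 471, 489 and 485 CPM in S4 against 213, 222 and 290 CPM in S2 (0.99 ± 0.25), and *PEPC1*, a phosphatase, had 6.25, 5.99 and 6.18 CPM against 2.07, 2.03 and 2.32 CPM (1.52 ± 0.24). For *PEPC1* S4 did not differ detectably from the parent (-0.03 ± 0.23) and S2 was below it (-1.55 ± 0.24). The phosphate gene that was lower was *RNS1*, a ribonuclease (-0.85 ± 0.19).

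Auxin response, clock, leaf polarity and heat shock genes were counted in the same way, against 13.0% higher and 15.6% lower over all genes. Of 11 auxin response genes tested, 5 were higher in S4 and none was lower (median 0.74): *IAA1* had 17.7, 18.6 and 17.2 CPM in S4 and 7.82, 7.10 and 11.0 CPM in S2 (1.04 ± 0.16), and *IAA2*, like it an auxin-induced repressor, and *GH3.1* and *GH3.2*, which conjugate auxin, differed by 0.99, 1.03 and 0.74. Of 12 clock genes, 7 were higher and 1 was lower. The lower one was *LHY*, a morning MYB (57.8, 58.7 and 57.1 CPM in S4, 94.5, 90.1 and 71.9 CPM in S2, -0.56 ± 0.09), and *PRR9*, *PRR7* and *GI*, which peak later in the day, were higher by 0.45, 0.43 and 0.43, *PRR9* not without S2 replicate 2 (adjusted p = 0.0578). Seedlings were in constant light, and the hour of harvest of each library is not given in the sources used here. Of 14 leaf polarity genes, 6 were lower and 1 was higher, and 8 and 2 without S2 replicate 3. *FIL*, which marks the lower leaf side, had 26.9, 27.8 and 26.4 CPM in S4 and 50.9, 52.5 and 40.2 CPM in S2 (-0.82 ± 0.08, adjusted p = 3.49e-07), and *YAB5*, *KAN3* and *AS2* differed by -0.82, -1.07 and -1.16. Of 15 heat shock genes, 9 were higher and none was lower (median 0.68). *ROF2*, a heat-induced co-chaperone, had 13.0, 13.5 and 12.4 CPM in S4 against 4.74, 4.01 and 6.61 CPM in S2 (1.34 ± 0.15), and the small chaperone *HSP23.6* differed by 1.96 ± 0.44.

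**Figure D4:**
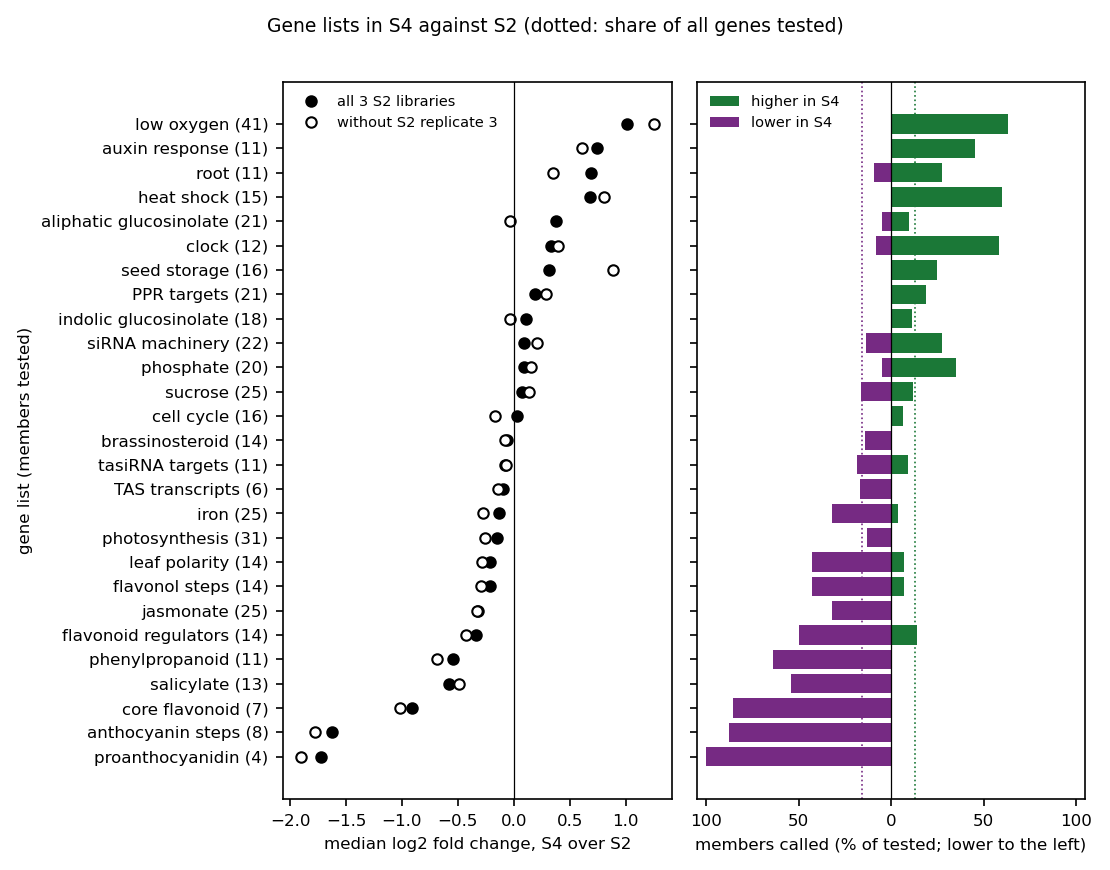
Left, median log2 fold change (S4 over S2) of 27 gene lists with all S2 libraries (filled) and without S2 replicate 3 (open); right, share of the tested members called higher (green, to the right) or lower (purple, to the left) in S4, with dotted lines at the shares over all genes tested, 13.0% and 15.6%. The low oxygen list is highest at a median of 1.01, and the anthocyanin and proanthocyanidin lists are lowest.

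In some lists the share of genes called was below the 28.6% over all genes. Of 14 brassinosteroid genes 2 were lower, *DET2* and *BRI1*, by a log2 fold change of -0.31 and -0.26. Of 18 indolic glucosinolate genes 2 were higher, *CYP81F4* (1.11 ± 0.29) and *CYP81F2* (0.79 ± 0.26), which modify the indole ring. Without S2 replicate 3, these 2 stayed higher and 3 genes were lower: *CYP79B2* (-0.22) and *CYP79B3* (-0.85), which start the route from tryptophan, and *GSTF10* (-0.33). The median of the list was 0.11 with that library and -0.04 without it. *CYP81F2* lost its call without S2 replicate 1 or 2 or S4 replicate 1 or 3 (adjusted p = 0.0629 to 0.146), *DET2* without S2 replicate 1 or 2 or S4 replicate 2 (adjusted p = 0.0714 to 0.0777) and *BRI1* without S4 replicate 1 (adjusted p = 0.0521). *BRI1* also stood just outside the threshold without S2 replicate 3. *CYP81F4* overlaps another gene, AT4G37409, over 2140 bases. The aliphatic glucosinolate genes set S2 replicate 3 apart instead. They summed to 993 to 999 CPM in S4, 1055 and 1013 CPM in S2 replicates 1 and 2, and 509 CPM in S2 replicate 3. Of 21 tested, 2 were higher in S4 and 1 was lower (9.5% and 4.8%, against 13.0% and 15.6% over all genes). Their median was 0.38, and -0.03 without S2 replicate 3. *BCAT4*, the first enzyme of methionine chain elongation, is outside the rule for named genes. It had 85.0, 80.8 and 84.0 CPM in S4, 66.1 and 62.7 CPM in S2 replicates 1 and 2, and 8.06 CPM in S2 replicate 3. *BCAT4* shares 307 bases with *IKU2*. It did not pass with that library (adjusted p = 0.124) or without it (adjusted p = 0.216).

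Markers of seed, root, green tissue and dividing cells were measured because whole seedlings hold all of these, and in such samples fewer cells of a type and less RNA per cell cannot be told apart. Transcripts of the 16 seed storage and reserve genes summed to 31146 to 33402 CPM in S4 and to 23983 to 34953 CPM in S2, so the groups overlapped, with S2 replicate 3 highest. Of these genes 4 were higher in S4 (25.0%, against 13.0% over all genes) and none was lower. *SESA4*, a 2S albumin, had 135, 132 and 139 CPM in S4 and 20.0, 18.5 and 14.8 CPM in S2 (2.93 ± 0.59). *CRA1*, a cruciferin that was not called and is outside the rule for named genes, had 853, 811 and 798 CPM in S4. In S2 it had 629 and 653 CPM in replicates 1 and 2 and 2494 CPM in replicate 3. The albumin genes are near copies of each other and may share reads. The 11 root genes summed to 1559 to 1604 CPM in S4 and 572 to 927 CPM in S2. In S4 and in S2 replicate 3 most of that was *PHO1*, which exports phosphate to the xylem. It had 1211, 1257 and 1281 CPM in S4 against 220, 217 and 639 CPM in S2 (1.80 ± 0.26, adjusted p = 4.47e-05, and 2.52 ± 0.13 without S2 replicate 3). In S2 replicates 1 and 2 it was the smaller part of sums of 575 and 572 CPM. With *PHO1* taken off, the sums of S4 and S2 overlapped. Of the 11 root genes, 3 were higher in S4 and 1 was lower (27.3% and 9.1%, against 13.0% and 15.6% over all genes). Beside *PHO1*, *RHD6* and *LRX1*, of root hairs, were higher (0.82 ± 0.13 and 1.02 ± 0.32) and *CASP1*, of the endodermis, was lower (-0.55), so root genes did not all move one way. *LRX1* lost its call without S4 replicate 1 (adjusted p = 0.0760) or S2 replicate 3 (adjusted p = 0.0647). Photosynthesis genes summed to only 367 to 388 CPM in S4 and 483 to 542 CPM in S2, with the tissue labelled as seedling. Of 31 tested, 4 were lower in S4 (12.9%, against 15.6% over all genes) and none was higher. Of the 4, *RBCS2B* had 2.02, 1.77 and 1.36 CPM in S4 and 17.8, 17.9 and 11.8 CPM in S2 (-3.18 ± 0.21, adjusted p = 4.36e-09). *RBCS3B* differed by -2.22, *RBCS1A* by -1.10 and *PSAF*, of photosystem I, by -0.43, the last with no call without any library but S2 replicate 3 (adjusted p = 0.0805 to 0.144). The *RBCS* genes, small subunits of Rubisco, are near-identical copies, and how reads were divided among them is not stated. Of 16 cell cycle genes 1 was higher in S4 (6.25%, against 13.0% over all genes). It was *CDKB2;2* (1.10 ± 0.24), which shares 192 bases with a neighbour. Without S2 replicate 3, *CYCD3;1* (-0.32), *MCM7* (-0.45) and *TSO2* (-0.60) were called lower as well. *MCM7* shares 437 bases with *STP7*. The list summed to 139 to 147 CPM in S4 and 124 to 168 CPM in S2. The part of these tissues in the other results was not tested.

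The genes with the largest changes, among those called with and without S2 replicate 3, without overlap and averaging 1 CPM or more in S4 and S2 together, came from several processes. Of these, the highest in S4 were *LAP5* (9.51, 9.36 and 9.18 CPM in S4, 0.258, 0.598 and 0.690 CPM in S2, log2 fold change 4.15 ± 0.39) and *ABCG31* (10.6, 11.1 and 11.4 CPM, against 0.610, 0.539 and 0.778 CPM, 4.09 ± 0.29). Both are known from the pollen wall, where LAP5 makes sporopollenin precursors and ABCG31 carries coat material. All 21 libraries outside S4 lay at or under 2.91 CPM for both. *LAP5* shares 89 and 84 bases with its 2 neighbours, and *PUM21*, named next, shares 232 bases with *SDH3-1*. The other 8 at the top, AT1G26240, AT1G29090, AT4G10414, AT1G16760, *PUM21*, AT5G26090, AT4G10410 and AT4G22090, differed by 3.14 to 3.89 on the log2 scale, and by 3.25 to 7.01 without S2 replicate 3, and stood under 2 CPM in all S2 libraries. AT1G16760 lost its call without any library but S2 replicate 3 (adjusted p = 0.0532 to 0.0994). Lowest in S4 under the same limits was AT3G01345, with 1.48, 1.37 and 1.91 CPM in S4 and 157, 163 and 7.50 CPM in S2 (-6.13 ± 0.85, adjusted p = 2.59e-05). It was S2 replicates 1 and 2 that stood apart for this gene, since the highest library outside S2 had 31.9 CPM and the parent 0.544 ± 0.287 CPM (SD, n = 3). *BGLU18*, a glucosidase that frees abscisic acid from its glucose ester, had 0.487, 1.01 and 0.790 CPM in S4, against 29.1, 24.5 and 6.56 CPM in S2 (-4.70 ± 0.40). For this gene it was S4 that differed, at 4.69 ± 0.40 below the parent on the log2 scale, while S2 was at the parent's level (0.01 ± 0.31). The others at the bottom were AT1G18830 (-5.47), AT5G24200 (-5.46), AT1G55525 (-5.09), *PBS3*, *ADG1*, *MBP2*, a myrosinase-binding protein (-4.30), *XBAT34*, a ubiquitin ligase (-4.07), and *GRP3S*, a glycine-rich protein (-3.80).

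Some calls depended on S2 replicate 3, and the genes that follow were chosen for that. The largest of those called with it and not without it were AT4G05370 (-1.72), *XTH13* (1.64), AT2G13910 (1.63), AT4G27580 and *EXT12*, a cell wall extensin (1.48), with an adjusted p without it between 0.0555 and 0.0763. *XTH13*, AT2G13910, AT4G27580 and *EXT12* lost their call without other single libraries as well (adjusted p up to 0.0745). The largest of those called without it and not with it were AT1G59630, *CYP82C4*, AT5G10040, AT3G29970 and AT5G26200. AT3G29970 had 160, 150 and 146 CPM in S4, 5.28 and 3.33 CPM in S2 replicates 1 and 2, and 62.0 CPM in S2 replicate 3 (adjusted p = 0.103 with it, and a call at a log2 fold change of 5.15 without it). *CYP82C4*, a hydroxylase of iron-deficient roots, had 2.77, 2.85 and 2.97 CPM in S4, 0.0235 and 0.0598 CPM in S2 replicates 1 and 2, and 3.64 CPM in S2 replicate 3. For AT1G59630, S2 replicates 1 and 2 had 0 and 1 counts, at or under the floor of 3 counts in each library (0.0704 and 0.0598 CPM), while S4 had 2.25, 2.57 and 2.83 CPM and S2 replicate 3 had 1.17 CPM.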

How the data were processed

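RNA-seq libraries from 24 seedling samples (8 genotypes, 3 libraries each) were used, grouped by their labels. The authors checked reads with FastQC (version 0.11.5), aligned them with HISAT2 to TAIR10 and counted them per gene with featureCounts, and they deposited raw counts for 33331 gene IDs in each library. Their settings for strand, multiply mapped reads and overlapping genes are not given in the sources used here. Overlaps of 192 bases or more with another annotated gene are therefore given beside the gene. Shorter ones, of 2 to 128 bases, were found for *LAP5*, *TPS5*, *HRE1*, *3AT1*, *TT19*, *TT12*, AT5G26200, *DIN10*, *BHLH101*, *SDE5*, *ADH1*, *CASP1*, *CYCD3;1*, *DET2*, *TAS1C*, *SAT*, *GSTF10*, *TSO2* and *TT4*. The authors called DE genes with DESeq2.

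Here the counts were tested with edgeR 4.0.16 (R 4.3.3): genes were kept by filterByExpr with genotype as the group, libraries were scaled by TMM, 1 mean per genotype was fitted over all 24 libraries, and the contrast S4 minus S2 was taken with the two-sided quasi-likelihood F test and Benjamini-Hochberg adjustment over all genes tested. The fit was repeated on 23 libraries, without S2 replicate 3. The SE of a log2 fold change was taken as its absolute value over the root of the F statistic. CPM are counts per 1000000 of the TMM-scaled library total. At these depths a count of 3 corresponds to 0.0414 to 0.116 CPM, a floor that covers counting error only. Comparisons of S4 and of S2 with *tt19-8* came from the same fit and share the *tt19-8* libraries.

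The genes compared and the gene lists were chosen with earlier results of these data known. The genes named are members of the lists for small RNA machinery, *TAS* precursors and targets, flavonoid and anthocyanin steps and regulators, flavonols, indolic glucosinolates, brassinosteroids, sucrose use and low oxygen. They also include up to 4 called members with the largest change in every other list, and the 10 higher and 10 lower genes with the largest change among those called with and without S2 replicate 3, without overlap and with a mean of at least 1 CPM. For calls that depend on S2 replicate 3, the 5 largest of each kind are named. Genes named outside these rules include *ICS1*, the neighbours of *ADG1*, and *BCAT4*, *CRA1*, *CYCD3;1*, *MCM7* and *TSO2*, which were not called with all libraries. Lists are described by counts and medians, with no test.

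Sequences, positions and overlaps were read from the RefSeq genome and annotation of TAIR10.1. They were matched to the count tables by locus ID only. Alternatives were DESeq2 1.42.0, its size factors in edgeR, no filter, a filter at a mean of 1 CPM, the 6 libraries alone, replicate number as a block, limma 3.58.1 (voom with quality weights), a robust fit, a threshold of 0.01, and leaving out each S4 or S2 library. The edgeR and DESeq2 steps were tested on simulated data first.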

Additional observations from a re-analysis of the deposited data

How the results depend on the processing

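The count of 6310 DE genes was 6716 with DESeq2 and 4849 with the 6 libraries alone. It lay between 5819 and 6228 with DESeq2's size factors, no filter, a filter at a mean of 1 CPM, a robust fit or the replicate number as a block. It moved by over 1.5 times to 11328 with voom and quality weights, to 3911 with the 6 libraries and the replicate block, and by construction to 3524 at an adjusted p under 0.01. Leaving out 1 library of S4 or S2 at a time gave 4302 to 7670. Without S2 replicate 3, the count of 7670 was 8035 with DESeq2, 11313 with only the 5 libraries left, and 4841 at the stricter threshold. The share of DE genes that were higher in S4 stayed between 41.3% and 50.4% (45.5% with all libraries in edgeR), and DESeq2's size factors moved the median of all genes by 0.01 on the log2 scale. Of the replicate numbers shared by S4 and S2, only number 1 passed the limit of 0.1 for a pairing. The correlations of their deviations were 0.11, 0.03 and 0.05 for numbers 1, 2 and 3, and each library correlated best with the one of its own number. The main fit used no pairing, and the block gave 6228 DE genes. Among the named genes it added the calls of AT1G59630, AT5G10040, AT3G29970, AT5G26200, *ADH1* and *PDC1* (adjusted p = 0.00893 to 0.0386) and ended that of *PSAF* (adjusted p = 0.0587). Of 2257 values for the 151 genes examined under 15 alternatives, 2058 kept their direction and their side of the threshold, 140 lost the call, 51 gained it and 8 changed sign. The 8 were of AT5G48290 (0.07, but -0.13 without S2 replicate 3 and -0.10 with voom, and -0.13 to 0.21 over all omissions of 1 library), *CRA1* (-0.62, but 0.36 without S2 replicate 3 and 0.25 with voom, and -0.94 to 0.36 over all omissions), neither of them called with any of these settings, and *CYP79B2* (0.00095, but -0.19 with voom, -0.013 and -0.0013 without S4 replicate 1 and 2, and -0.22 to 0.13 over all omissions), which was called lower with voom and without S2 replicate 3. For 95 genes no alternative changed the call, and the cause of the other changes was not tested. The 6 libraries alone ended the calls of *SUS3*, *DIN10*, *DET2* and *BRI1* (adjusted p = 0.0557 to 0.143). Depth limited few of the named genes, since most stood well above the floor of 3 counts. Each suppressor is 1 mutagenized line, so a difference between S4 and S2 cannot be assigned to *RDR6*.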
